A study of Mus musculus with 16 samples.

Results

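The genes described here are those by which footpad skin builds its epidermis: keratins and anchoring proteins of the basal layer, keratins of the upper layers, keratins and small proline-rich proteins of stressed epidermis, proteins of the cornified envelope, desmosomal proteins, the proteases of desquamation with their inhibitor, and enzymes and a transporter of barrier lipids. The list held 42 gene symbols, chosen by their known roles but with earlier results of these data already known. Of these, 40 were measured by a probe set of their own, out of 19938 genes on the array. The desmosomal cadherin Dsg1a was reached only by a probe set that names several genes, and the desmosomal gene Dsc1 was not analysed here. Footpad RNA came from AIRmax and AIRmin mice, lines of an outbred stock selected in opposite directions for a high and a low acute inflammatory reaction after an intercross of isogenic strains. Each line gave 4 arrays labelled control (day 0) and 4 labelled pristane (day 160), with 2 males and 2 females in each group, and the labels give the age as 2 to 4 months for all of them. Pristane, a mineral oil that induces arthritis, was injected into the peritoneal cavity (2 injections of 0.5 ml, 60 days apart), and the days are counted from the second injection. Mice taken at day 160 after a second injection cannot have been 2 to 4 months old at sampling. The labelled age thus does not show that the groups were sampled at the same age. Whether control mice had received oil is not settled by the sources used here, and in either line treatment cannot be told apart from time or age. The arrays are called here by the numbers of their labels, 105 to 108 for AIRmax control, 109 to 112 for AIRmax pristane, 113 to 116 for AIRmin control and 117 to 120 for AIRmin pristane mice. A whole footpad also holds muscle, fat, vessels, glands, tendon and bone, so in every result below fewer keratinocytes and less RNA per keratinocyte cannot be told apart.

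Epidermis renews itself from a basal layer that makes the keratin pair Krt5 and Krt14 under the control of the transcription factor Trp63. Cells that leave this layer switch to Krt1 and Krt10, and in the thick skin of palms and soles also to Krt9. They then cross-link loricrin, involucrin and other proteins into a cornified envelope, coat it with lipids, and are shed when kallikreins cut the desmosomes that hold them. Many of these genes lie in clusters. In GRCm38.p6, 6 members lay on chromosome 3 between 92080271 and 93333572, in the epidermal differentiation complex (Flg2, Hrnr, Ivl, Lor, Sprr1a and Sprr1b). The type I keratin cluster on chromosome 11 held 6 members between 99385254 and 100261029, and the type II cluster on chromosome 15 held 7 between 101348315 and 101869706.

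Promoters of the clustered envelope and stress genes are shown because the results below turn on members that moved together from array to array. Each window of 300 bases spans the annotated start, most of it upstream, as RefSeq gives it for GRCm38.p6, and 23 of the 40 members had at least 1 such entry, 25 windows in all. Capitals mark the TATA box letters TATAAA and the AP-1 letters TGANTCA, where N is any base. Both strands were searched, and no match of one motif overlapped a match of the other in the windows shown. Sprr1a lies at chr3:92485832-92486131 on the minus strand, Sprr1b at chr3:92438730-92439029 on the minus strand, Lor at chr3:92083093-92083392 on the minus strand, Ivl at chr3:92573686-92573985 on the minus strand and Flg2 at chr3:93197023-93197322 on the plus strand. Abca12, at chr1:71414861-71415160 on the minus strand, is shown as a lipid gene without either motif.
Sprr1a: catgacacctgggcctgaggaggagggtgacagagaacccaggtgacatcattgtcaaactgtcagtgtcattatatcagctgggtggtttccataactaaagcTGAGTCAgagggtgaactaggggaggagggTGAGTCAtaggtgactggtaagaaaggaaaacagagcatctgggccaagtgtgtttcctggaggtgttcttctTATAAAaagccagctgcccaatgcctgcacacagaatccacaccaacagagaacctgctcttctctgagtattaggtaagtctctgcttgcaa
Sprr1b: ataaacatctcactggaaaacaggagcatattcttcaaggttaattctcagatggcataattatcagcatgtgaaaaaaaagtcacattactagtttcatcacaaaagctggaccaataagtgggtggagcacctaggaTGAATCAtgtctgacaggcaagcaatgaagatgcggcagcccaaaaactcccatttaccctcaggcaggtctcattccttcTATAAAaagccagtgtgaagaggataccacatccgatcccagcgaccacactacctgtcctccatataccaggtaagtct
Lor: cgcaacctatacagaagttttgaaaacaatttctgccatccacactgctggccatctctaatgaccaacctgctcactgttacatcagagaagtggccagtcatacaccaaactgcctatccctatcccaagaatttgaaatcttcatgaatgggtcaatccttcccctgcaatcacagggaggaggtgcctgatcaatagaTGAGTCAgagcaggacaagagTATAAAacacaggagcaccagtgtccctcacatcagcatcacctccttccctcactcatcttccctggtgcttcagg
Ivl: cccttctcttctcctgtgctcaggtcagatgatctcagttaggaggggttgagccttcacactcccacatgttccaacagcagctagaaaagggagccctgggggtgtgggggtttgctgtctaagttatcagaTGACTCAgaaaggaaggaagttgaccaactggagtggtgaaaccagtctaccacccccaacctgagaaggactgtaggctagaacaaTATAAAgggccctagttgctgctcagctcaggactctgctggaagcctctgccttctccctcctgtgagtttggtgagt
Flg2: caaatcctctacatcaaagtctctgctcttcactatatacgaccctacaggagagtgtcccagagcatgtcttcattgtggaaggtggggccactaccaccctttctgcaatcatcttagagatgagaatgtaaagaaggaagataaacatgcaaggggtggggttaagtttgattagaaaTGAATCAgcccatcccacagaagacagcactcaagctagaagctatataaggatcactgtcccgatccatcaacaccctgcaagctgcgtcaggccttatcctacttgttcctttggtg
Abca12: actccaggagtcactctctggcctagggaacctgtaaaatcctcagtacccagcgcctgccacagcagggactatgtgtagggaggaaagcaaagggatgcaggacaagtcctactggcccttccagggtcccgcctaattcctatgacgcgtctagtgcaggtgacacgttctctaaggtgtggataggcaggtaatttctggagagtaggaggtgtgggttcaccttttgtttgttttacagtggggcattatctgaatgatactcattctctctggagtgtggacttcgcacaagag
The AP-1 letters were found in 5 of the 25 windows (20.0%), those of Flg2, Ivl, Lor, Sprr1a and Sprr1b, against 7.81% of all 32851 promoter windows. All 5 genes belong to the cluster on chromosome 3. Sprr1a held 2 matches, which began 146 and 116 bases before its start. The TATA box letters were found in 7 windows (28.0%) against 13.6% of all windows, and in Sprr1a, Sprr1b, Lor and Ivl they began 43, 30, 27 and 29 bases before the start. The CCAAT letters were found in 8 windows (32.0%, all windows 37.4%) and the grainyhead-like letters AACCNGTT in 0 (all windows 2.09%). These matches describe the letters of the windows, not sites in use.

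The measured genes fitted footpad epidermis. All 40 members had a mean log2 signal above the median of all genes (6.154), although probe affinity also enters such levels. Of the skin appendage markers used below, all 15 hair and nail genes and 5 of 6 sebaceous genes were above that median as well. Krt9, the keratin of sole skin, was at 10.38 ± 0.33 in AIRmax control and 10.47 ± 0.30 in AIRmin control mice (mean ± SD, n = 4 mice in every group here and below). Array medians of the log2 signal ran from 5.435 to 5.53 over the 16 arrays. Groups were compared with limma, the log2 fold change is the difference of mean log2 signals, and passing means a p under 0.05 after Benjamini-Hochberg adjustment over all 19938 genes. For SAM, used by the study, the false discovery rate was 0.05.

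The clearest feature of these genes was their joint movement from array to array, which also ran within groups. In AIRmax pristane mice, array 112 had the lowest signal for 39 of 40 members. In AIRmax control mice array 108 was the lowest for 38 members, in AIRmin control mice array 116 for 33, and in AIRmin pristane mice array 118 for 32. The mean deviation of the 40 members from their own means over the 16 arrays was -0.91 on array 108, -0.90 on array 109 and -1.92 on array 112, and between -0.09 and 0.86 on the other 13 arrays. AIRmax pristane arrays thus fell into a high pair (110 at 0.39 and 111 at 0.27) and a low pair, each pair holding 1 male and 1 female. The median SD of the members was 1.10 in AIRmax pristane mice, against 0.19 over all genes. It was 0.52 in AIRmax control, 0.29 in AIRmin control and 0.39 in AIRmin pristane mice, against 0.16, 0.14 and 0.18 over all genes.

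**Figure D1:**
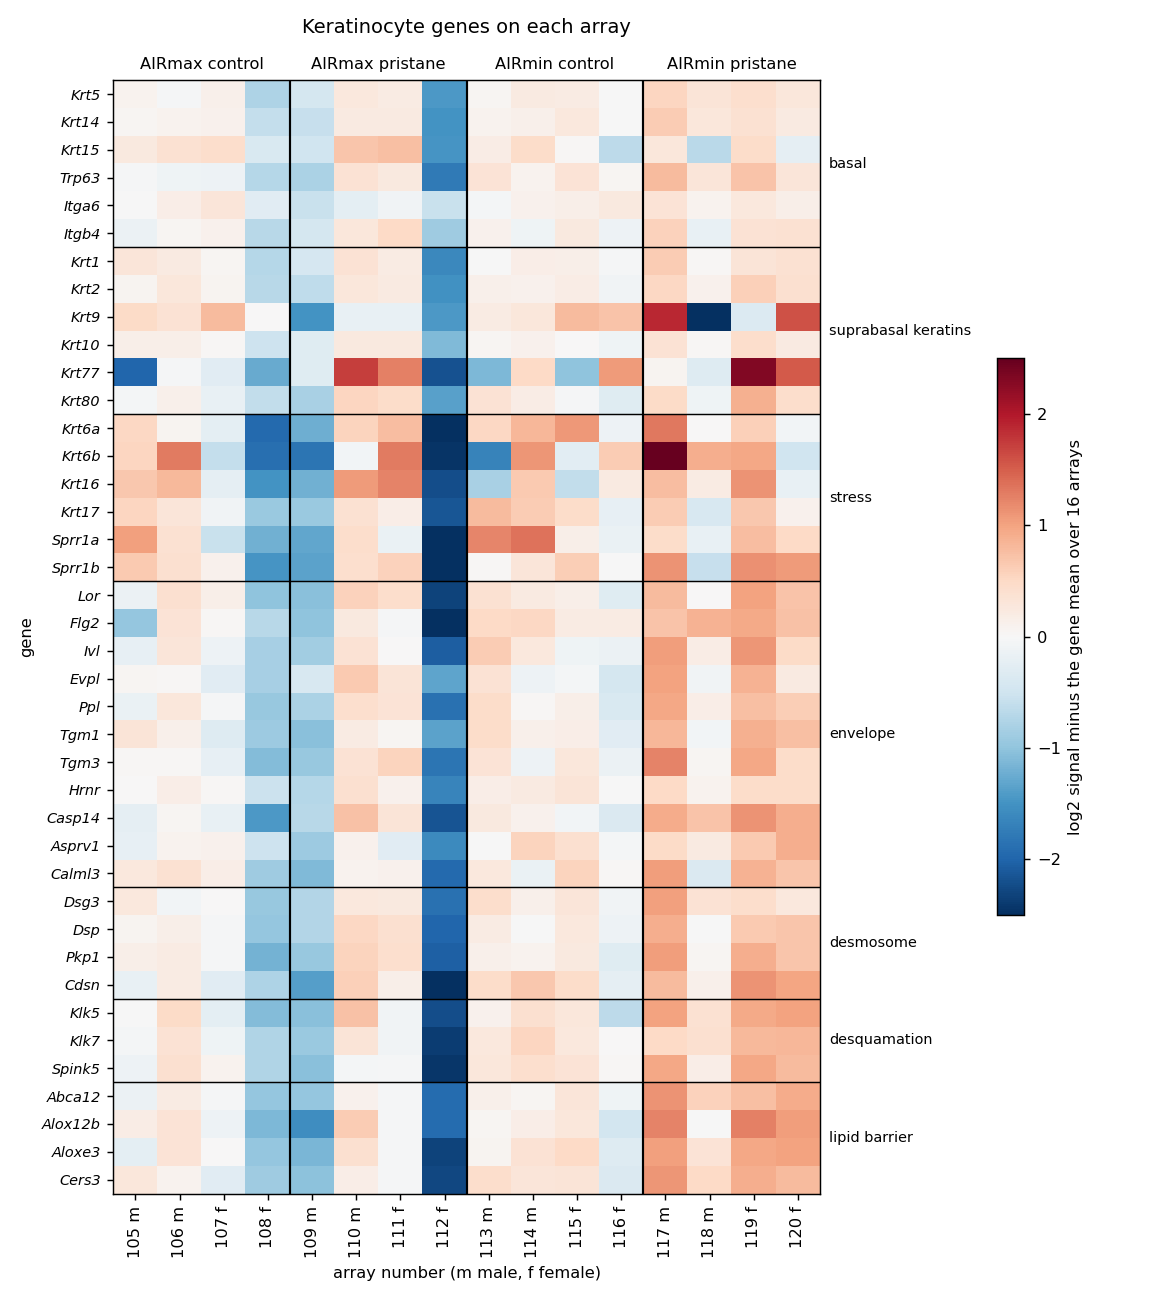
Log2 signal of 40 keratinocyte genes (rows, by role) on 16 arrays (columns, by group), each as the deviation from the gene's mean over the arrays, with the colour scale ending at -2.5 and 2.5. Array 112 is blue in nearly every row and arrays 108 and 109 are paler blue, while arrays 117 and 119 are red in most rows; Krt9 and Krt77 depart from this pattern.

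As a description over 16 arrays of 4 groups, a member's correlation with the mean of the other members had a median of 0.96, and of 0.95 after group means were removed. It reached 0.9 or more for 32 of 40 members and for 377 other genes (1.89%). Krt2, a keratin of the upper layers (r = 0.99), the desmosomal plaque gene Pkp1 (0.99) and the envelope gene Lor (0.99) followed the rest most closely. The 8 members under 0.9 were Krt9 (0.43), Krt77 (0.61), Krt6b (0.74), Krt15 (0.75), the basal integrin gene Itga6 (0.78), Krt16 (0.82), Sprr1a (0.86) and Flg2 (0.89). Among genes outside the list, the closest to the members' mean were Trim29 (0.99), Dsg1b (0.99), Esrp1 (0.99), Perp (0.99) and Ckmt1 (0.98), of which Dsg1b and Perp encode desmosomal proteins and Esrp1 an epithelial splicing regulator.

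Markers of other cells and structures moved with this pattern. The mean deviation of 9 neutrophil and granulocyte precursor genes (Elane, Mpo, Ngp, Camp, Ltf, Retnlg, Cxcr2, Mmp8 and Mmp9), all 9 of them above the median gene in mean signal, was 1.94 on array 108, 1.98 on array 109 and 1.88 on array 112, the 3 arrays lowest in keratinocyte genes. It was 1.17 on array 118 and lay between -2.65 and 0.49 on the other 12 arrays. Its correlation with the members' mean deviation was -0.72 over the 16 arrays and -0.71 within groups, as a description. Skin appendage genes ran with the members instead: the same correlation was 0.75 (0.65 within groups) for 10 sweat gland genes, 5 of them above the median gene, 0.52 (0.54) for 6 sebaceous genes and 0.52 (0.55) for 15 hair and nail genes. It was 0.55 (0.31) for 18 skeletal muscle genes and -0.59 (-0.24) for 11 macrophage genes. By group the mean deviation of the 9 neutrophil genes ran from 0.33 to 1.94 in AIRmax control, from -0.28 to 1.98 in AIRmax pristane, from -2.65 to 0.10 in AIRmin control and from -2.21 to 1.17 in AIRmin pristane mice. At day 160, 18 skeletal muscle genes were at -0.82 ± 0.71 in AIRmax mice and at 0.39 ± 0.21 in AIRmin mice, and 11 macrophage genes at 0.55 ± 0.18 and -0.51 ± 0.24 in the same order. The part of these cells in the differences below was not tested beyond the fit with the neutrophil score as a covariate.

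**Figure D2:**
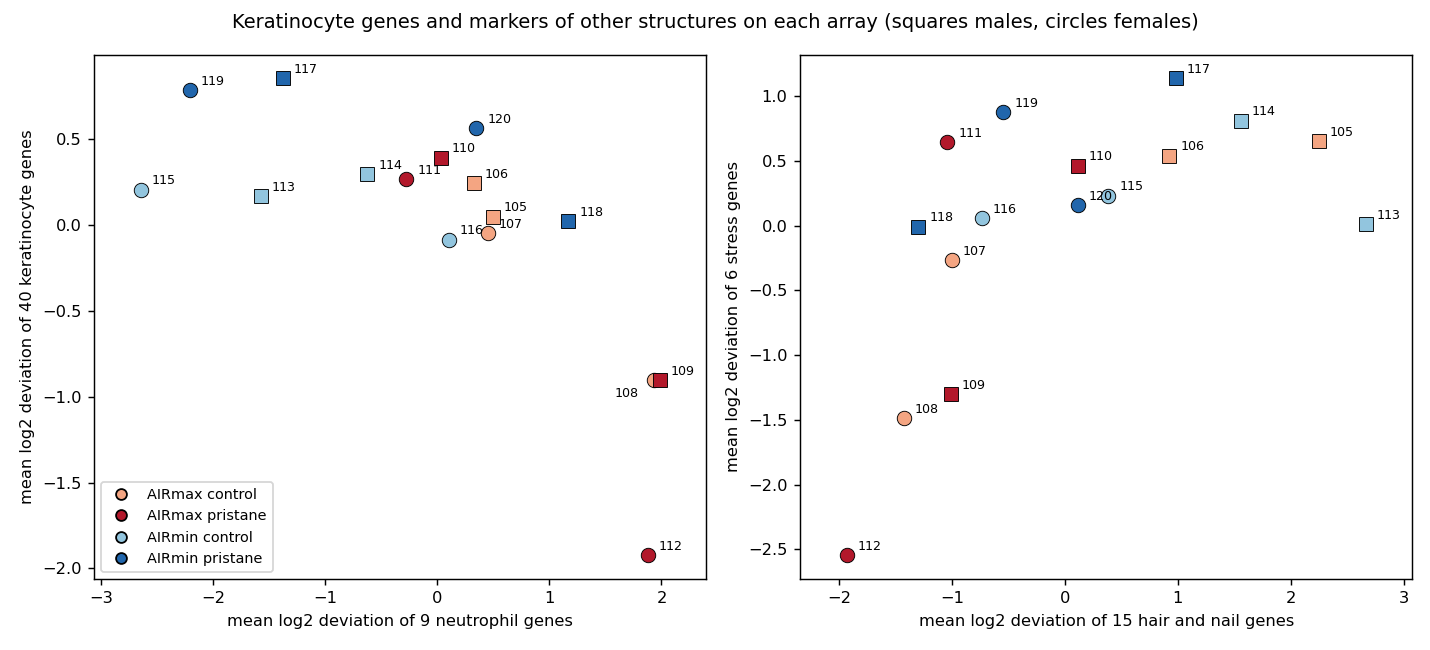
Left, the mean log2 deviation of the 40 keratinocyte genes against that of 9 neutrophil genes on each of 16 arrays; right, that of the 6 stress genes against that of 15 hair and nail genes. Squares are males, circles females, colours the 4 groups, and numbers the arrays. Arrays 108, 109 and 112 lie apart at the lower right of the left panel, at neutrophil values of 1.88 to 1.98, and 3 of the 4 control males (105, 113 and 114) are the farthest right in the right panel.

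The AIRmax response asked how pristane footpads differed from control footpads in the line selected for high inflammation. By limma 0 of 40 members passed (all genes, 0.281%), and the smallest adjusted p was 0.166. The log2 fold change was negative for 37 members, with a median of -0.36 (all genes, 0.03), and was 0.05 without array 112, -0.62 without array 108 and -0.66 without array 110. At an unadjusted p under 0.05, 2 members were lower, Krt9 and Itga6 (all genes, 6.90% lower), and 0 were higher. The groups did not overlap for 1 member, Krt9, lower in pristane mice (all genes, 4.30% lower), and SAM also called Krt9 alone (all genes, 3.84%). Markers of other tissues differed in the same comparison. By unadjusted p under 0.05, 15 of 18 skeletal muscle genes (median -0.95), 8 of 9 adipocyte genes (-1.07) and 6 of 6 sebaceous genes (-1.16) were lower in AIRmax pristane mice (all genes, 6.90% lower), with 0 of them passing by limma. Of 11 macrophage genes (0.54), 8 were higher by that p (all genes, 1503 of 19938 higher), and 3 of the 8 passed. The part of these tissues and cells in the members' values was not tested.

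Krt9 was at 10.44, 10.34, 10.76 and 9.97 in AIRmax control mice. It was at 8.47, 9.78, 9.78 and 8.52 in AIRmax pristane mice. All 4 pristane arrays lay below all 4 controls, including arrays 110 and 111, which were high for most other members. The log2 fold change was -1.24 with a standard error of 0.34 (adjusted p = 0.166 from limma). In AIRmin pristane mice Krt9 was at 11.86, 6.46, 9.62 and 11.56, and the AIRmin control values of 10.18, 10.26, 10.76 and 10.68 lay inside that range. The value of 6.46 came from array 118, and the change in AIRmin was -0.59 with it and 0.54 without it (adjusted p = 0.853 and 0.645 from limma).

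Among the basal genes, whose median change in AIRmax was -0.28, Itga6 encodes an integrin chain that ties keratinocytes to the basement membrane. Its signals were 9.34, 9.52, 9.66 and 9.08 in AIRmax control and 8.80, 9.10, 9.26 and 8.79 in AIRmax pristane mice. The lowest control, array 108, lay below 2 of the pristane arrays, and the change of -0.41 (standard error 0.16) did not pass (adjusted p = 0.287). Its partner Itgb4 differed by 0.03 and Krt14 by -0.32 (standard error 0.37). Krt14 was at 11.31, 12.11, 12.11 and 10.38 in AIRmax pristane mice against 11.93, 11.97, 11.99 and 11.29 in the controls, so the high pair of pristane arrays lay above every control.

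Of the other suprabasal keratins in AIRmax, Krt1 and Krt10, the pair of the spinous layer, differed by -0.33 (standard error 0.42) and -0.18 (0.30). Krt77 had the largest positive value of any member, 1.02 (0.81), with signals of 8.15, 10.19, 9.71 and 6.27 in pristane and 6.47, 8.43, 8.16 and 7.19 in control mice. The stress genes had a median change of -0.59. Sprr1a, an envelope precursor made by stressed and differentiating keratinocytes, differed by -0.85 (0.71), Sprr1b by -0.77 (0.80), Krt6a by -0.24 (0.80) and Krt16 by -0.22 (0.82). Krt16 showed the split of the pristane group best: it was at 8.63 and 8.80 on arrays 110 and 111, and at 6.36 and 5.35 on arrays 109 and 112.

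The envelope, desmosomal, desquamation and lipid genes had median changes of -0.38, -0.31, -0.63 and -0.55 in AIRmax. None of them passed. The largest in each role were Calml3, a calmodulin-like protein of keratinocytes (-0.69, standard error 0.48), and the protease gene Asprv1 (-0.54, 0.33) among the envelope genes, Cdsn, the corneodesmosome protein (-0.57, 0.64), and Dsg3 (-0.34, 0.47) among the desmosomal genes, the protease inhibitor gene Spink5 (-0.78, 0.51) and the kallikrein gene Klk7 (-0.63, 0.53) in desquamation, and the ceramide synthase gene Cers3 (-0.59, 0.51) and Aloxe3 (-0.56, 0.55) among the lipid genes. Without array 112 the medians of the 7 roles lay between -0.09 and 0.17.

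The AIRmin response asked the same in the line selected for low inflammation. By limma 0 of 40 members passed (all genes, 0.0%, with 0 of 19938 called). The smallest adjusted p of a member was 0.0513, for Casp14, equal to the smallest of all genes. Of the 40 members 35 had a positive log2 fold change, with a median of 0.43 (all genes, 0.02). At an unadjusted p under 0.05, 20 of 40 were higher in pristane mice (all genes, 5.12% higher) and 0 were lower. The groups did not overlap for 5, each higher in pristane mice: Krt5, Flg2, Casp14, Abca12 and Cers3 (all genes, 3.19% higher). SAM called 2, Casp14 and Abca12 (all genes, 2.13%). Markers of other tissues differed here as well, with 0 passing by limma. By unadjusted p under 0.05, 8 of 8 fibroblast genes (median -0.74), 10 of 11 macrophage genes (-0.58), 5 of 5 osteoblast genes (-0.94), 6 of 8 endothelial genes (-0.59) and 6 of 9 adipocyte genes (-0.73) were lower in AIRmin pristane mice (all genes, 1449 of 19938 lower). Of 18 skeletal muscle genes (0.12), 0 were lower or higher by that measure. Their part in the members' values was not tested.

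Casp14 encodes a caspase of the upper epidermis that takes part in the breakdown of filaggrin. Its signals were 7.85, 7.72, 7.54 and 7.26 in AIRmin control and 8.54, 8.32, 8.73 and 8.51 in AIRmin pristane mice. Each pristane array was above each control, array 118 included. The change was 0.93 with a standard error of 0.14 (adjusted p = 0.0513 from limma). In AIRmax the same gene was at 7.39, 7.67, 7.43 and 6.18 in control and at 6.91, 8.34, 7.94 and 5.46 in pristane mice, a difference of -0.01 (0.60), and the interaction test of the responses did not pass (-0.94, standard error 0.66, adjusted p = 0.786).

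Abca12 encodes the transporter that loads lipids into lamellar granules. It was at 8.59, 8.51, 8.76 and 8.34 in AIRmin control and at 9.57, 9.02, 9.21 and 9.38 in AIRmin pristane mice, again without overlap. The change was 0.74 (standard error 0.14, adjusted p = 0.0764). The other lipid genes were the lipoxygenase genes Alox12b (0.87, 0.28) and Aloxe3 (0.68, 0.21) and Cers3 (0.64, 0.19), and all 4 had an unadjusted p under 0.05. Their median of 0.71 was the highest of the 7 roles. The medians were 0.52 for envelope genes (11 of 11 positive), 0.45 for desmosomal and 0.45 for desquamation genes, 0.30 for suprabasal keratins, 0.26 for basal genes and 0.18 for stress genes (3 of 6 positive). Loricrin, Lor, the main envelope protein, differed by 0.52 (0.22), involucrin, Ivl, by 0.55 (0.24), Trp63 by 0.32 (0.14), Krt5 by 0.28 (0.10), Krt1 by 0.27 (0.13) and Krt6a by -0.11 (0.33).

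Of the arrays left out in turn, array 118 moved the AIRmin count most. Without it 5 members passed, all higher in pristane mice (Sprr1b, Casp14, Pkp1, Abca12 and Alox12b; all genes, 0.331% higher), 31 were higher at an unadjusted p under 0.05 (all genes, 7.17%), and the median was 0.63. With the neutrophil score as a covariate, a fit chosen after the data had been seen, 14 members passed, all higher (Trp63, Krt2, Lor, Evpl, Ppl, Tgm3, Casp14, Dsp, Pkp1, Klk5, Abca12, Alox12b, Aloxe3 and Cers3; all genes, 1.38% higher), and the median was 0.55.

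**Figure D3:**
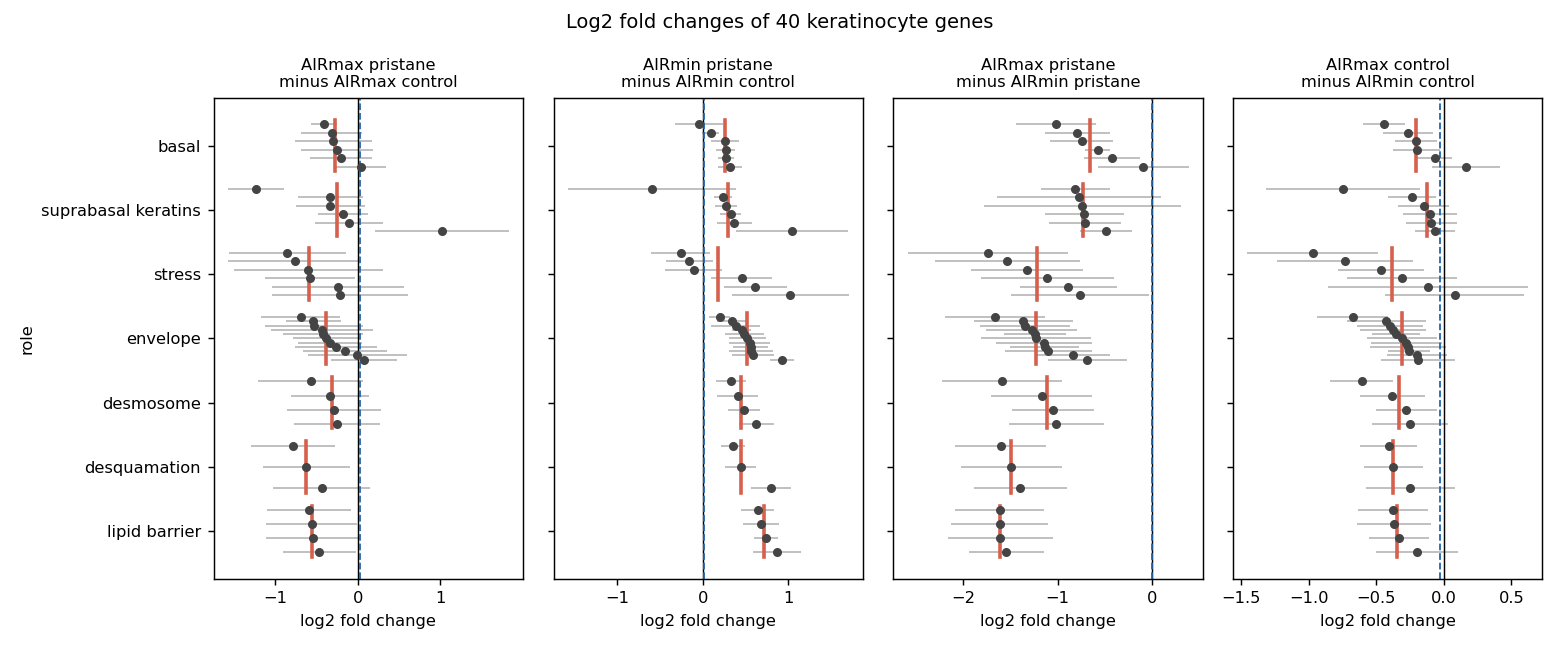
Log2 fold change of each of 40 keratinocyte genes by role in 4 comparisons, with bars of 1 standard error from limma, a red line at the median of each role and a blue dashed line at the median of all genes. In the panel of AIRmax pristane minus AIRmin pristane every gene lies below 0, from -1.74 (Krt6b) to -0.09 (Krt15). That panel shares its AIRmax pristane arrays with the AIRmax response and its AIRmin pristane arrays with the AIRmin response.

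At day 160 AIRmax and AIRmin footpads were compared directly. By limma 0 of 40 members passed (all genes, 1.36%), and the smallest adjusted p was 0.0709. All 40 members had a lower mean in AIRmax mice, with a median log2 fold change of -1.12 (all genes, -0.01). At an unadjusted p under 0.05, 20 were lower (all genes, 10.1% lower) and 0 were higher. The groups did not overlap for 9 members (all genes, 5.81% lower): Krt5, Krt14 and Itga6 of the basal layer, Flg2 and Asprv1 of the envelope, Klk7 and Spink5 of desquamation, and Abca12 and Cers3 of the lipid barrier. SAM called 1, Itga6 (all genes, 5.21%). Without array 112 the median was -0.64 and 13 members were lower at an unadjusted p under 0.05 (all genes, 7.37%). With the neutrophil score as a covariate the median was -0.47 and 8 were (all genes, 8.34%), with 0 passing in either fit. Without array 110, 2 members passed, Asprv1 and Abca12 (all genes, 1.57% lower). The fit of all 16 arrays called 7, Itga6, Flg2, Asprv1, Spink5, Abca12, Aloxe3 and Cers3 (all genes, 3.80% lower). Markers of other tissues differed as well. By unadjusted p under 0.05, 17 of 18 skeletal muscle genes (median -1.23) were lower in AIRmax mice (all genes, 10.1% lower), and 1, Mb, passed. All 15 hair and nail (-0.78), 10 sweat gland (-0.40), 9 adipocyte (-0.56) and 6 sebaceous genes (-0.78) had lower means. Of 11 macrophage genes (0.96), 10 were higher by that p (all genes, 1748 of 19938 higher), and 5 passed. Their part in the members' values was not tested.

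The roles differed in the size of their medians at day 160. The median difference was -0.66 for basal genes, -0.73 for suprabasal keratins, -1.11 for desmosomal, -1.22 for stress, -1.23 for envelope, -1.49 for desquamation and -1.61 for lipid genes. Without array 112 they were -0.40, -0.33, -0.63, -0.58, -0.80, -0.97 and -1.13 in the same order. The order of the roles was not tested.

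In the lipid role, Abca12 was at 7.49, 8.57, 8.42 and 6.53 in AIRmax pristane and at 9.57, 9.02, 9.21 and 9.38 in AIRmin pristane mice. All AIRmax arrays lay below all AIRmin arrays, and the difference of -1.54 (standard error 0.40) was -1.14 without array 112 (adjusted p = 0.0898 and 0.126). Cers3, whose enzyme makes ceramides with very long chains, was at 6.76, 7.95, 7.76 and 5.50 against 8.89, 8.28, 8.69 and 8.57, a difference of -1.61 (0.47, adjusted p = 0.116). Alox12b (-1.61, 0.55) and Aloxe3 (-1.61, 0.51) differed by similar amounts, with adjusted p of 0.167 and 0.141.

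In desquamation, Spink5, the inhibitor of epidermal kallikreins, was at 8.76, 9.76, 9.77 and 7.38 in AIRmax pristane and at 10.76, 9.96, 10.77 and 10.59 in AIRmin pristane mice. The highest AIRmax array lay just below the lowest AIRmin array, and the difference was -1.60 (standard error 0.49, adjusted p = 0.125). The kallikrein genes themselves differed by -1.49 (0.53) for Klk5 and -1.39 (0.49) for Klk7. Inhibitor and proteases thus had lower means together.

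Among the envelope genes, Flg2, a filaggrin-like protein gene, was at 7.76, 9.01, 8.73 and 6.14 in AIRmax pristane and at 9.47, 9.63, 9.72 and 9.49 in AIRmin pristane mice, without overlap. The difference was -1.67 (standard error 0.53, adjusted p = 0.140). Asprv1, the protease that processes filaggrin, differed by -1.24 (0.33, adjusted p = 0.0956). Casp14 differed by -1.36 (0.53), Ivl by -1.35 (0.48) and Lor by -1.23 (0.58), and for these 3 the groups overlapped, with array 118 below array 110.

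Desmosomal and stress genes had wide spreads. Cdsn differed by -1.59 (standard error 0.64), Pkp1 by -1.17 (0.53), Dsp by -1.01 (0.50) and Dsg3 by -1.05 (0.44). Krt6b had the most negative value of all members, -1.74 (0.85, adjusted p = 0.308), with signals of 5.66, 7.41, 8.78 and 5.02 in AIRmax pristane mice, against 9.99, 8.39, 8.45 and 6.99 in those of AIRmin. Its ranges overlapped. Krt6a, whose sequence is close to that of Krt6b so that probes may not tell them apart, differed by -1.11 (0.70), Sprr1b by -1.53 (0.77), Sprr1a by -1.33 (0.59) and Krt16 by -0.76 (0.73).

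The basal genes had the smallest median of the 7 roles. Itga6 was at 8.80, 9.10, 9.26 and 8.79 in AIRmax pristane and at 9.70, 9.44, 9.61 and 9.50 in AIRmin pristane mice. The groups did not overlap, and the difference was -0.57 (standard error 0.13, adjusted p = 0.0709), and -0.51 without array 112 (adjusted p = 0.176). Krt14 was at 11.31, 12.11, 12.11 and 10.38 against 12.51, 12.17, 12.28 and 12.12. The highest AIRmax arrays came close to the lowest AIRmin array, and the difference of -0.79 (0.35) became -0.43 without array 112. Krt5 differed by -0.74 (0.33), Trp63 by -1.02 (0.42), Krt1 by -0.71 (0.38), Krt2 by -0.81 (0.36), Krt77 by -0.78 (0.87) and Krt10 by -0.49 (0.28).

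**Figure D4:**
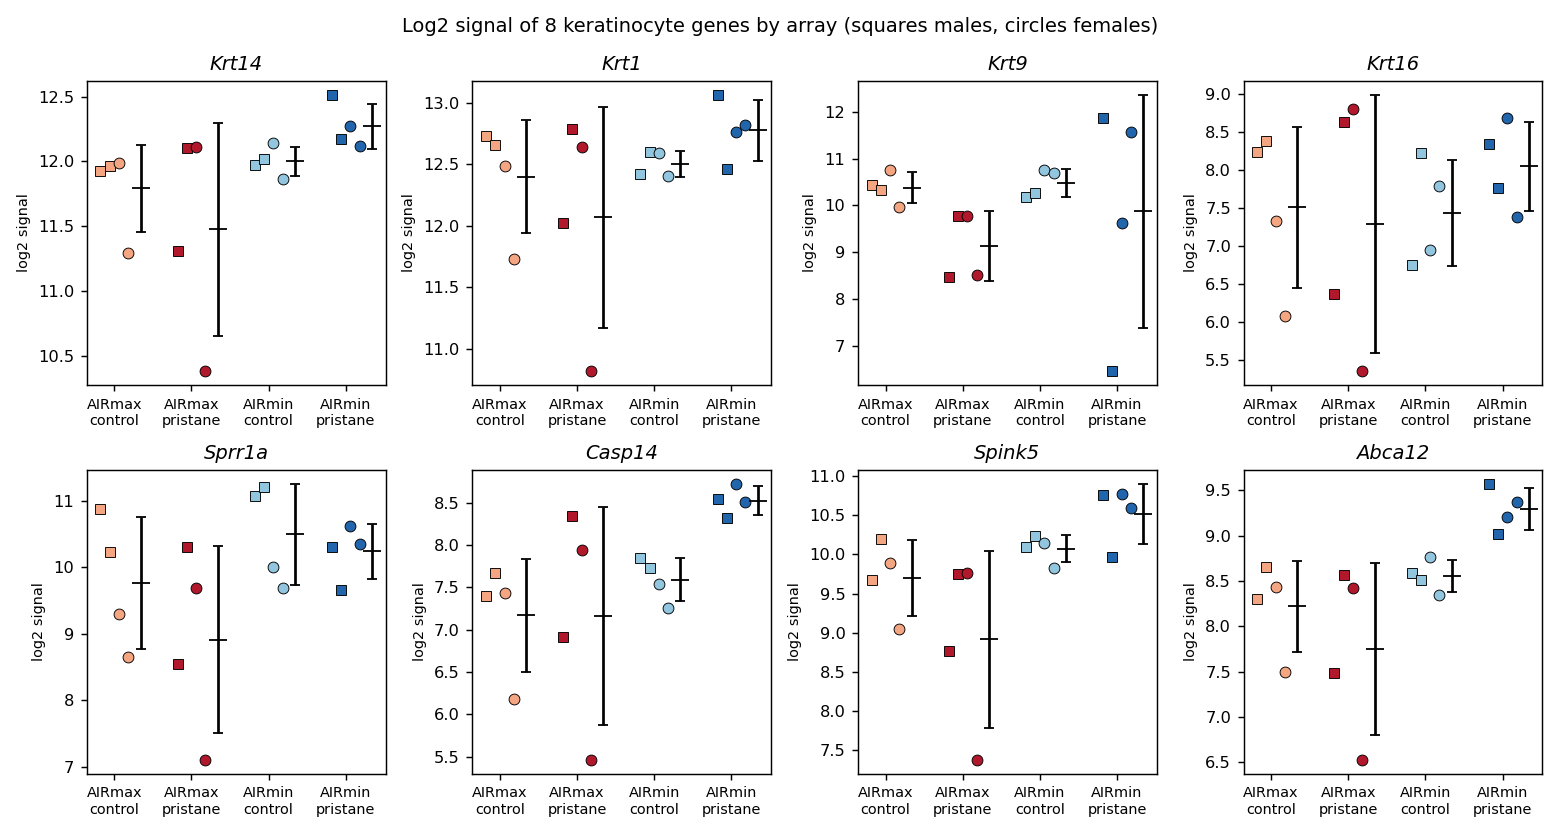
Log2 signal of Krt14, Krt1, Krt9, Krt16, Sprr1a, Casp14, Spink5 and Abca12 on each array by group, squares for males and circles for females, with the mean and 1 SD beside each group (n = 4 mice). Axes do not start at 0. In AIRmax pristane mice arrays 109 and 112 lie below arrays 110 and 111 in all 8 panels, and for Casp14 and Abca12 all AIRmin pristane arrays lie above all AIRmin controls.

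Signals were also set against the basal keratins of the same array, by subtracting the mean of Krt5 and Krt14. This takes out shared movement only for genes that moved by as much as Krt5 and Krt14 (within-group SD 0.45 and 0.46). The median within-group SD was 0.45 for basal genes, 0.54 for suprabasal keratins, 0.66 for envelope, 0.71 for desmosomal, 0.66 for desquamation, 0.68 for lipid and 1.06 for stress genes. The scale therefore cannot tell a difference beyond the basal layer from wider movement of the same kind. No test on the subtracted values is given in this paragraph. A limma fit on values centred in this way is among the alternative fits at the end. The subtraction moves the median of all genes as well, by 0.26 in the AIRmax response, -0.27 in the AIRmin response and 0.77 between lines at day 160. At day 160 the median of the other 38 members was -0.37, with 29 negative. By role it was -0.84 for lipid, -0.72 for desquamation, -0.46 for envelope, -0.45 for stress and -0.34 for desmosomal genes, against 0.04 for suprabasal keratins and 0.27 for the other 4 basal genes. Abca12 stood -3.95, -3.61, -3.74 and -3.94 from the basal keratins in AIRmax pristane and -2.95, -3.22, -3.14 and -2.82 in AIRmin pristane mice. The low pair of AIRmax arrays still lay below the other pair, by less than before, and the difference was -0.78. The lines did not overlap for 5 of 38 members, all lower in AIRmax: Flg2, Asprv1, Spink5, Abca12 and Cers3 (all genes on this scale, 0.351% lower). That share is not a like background, because the subtraction moved all genes too. Before the subtraction, 5.81% of all genes were lower without overlap.

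In the AIRmin response the same scale gave medians of 0.44 for lipid, 0.25 for envelope, 0.17 for desmosomal and 0.17 for desquamation genes, and 0.03 for suprabasal keratins. Casp14 moved from -4.46 ± 0.24 in control to -3.80 ± 0.18 in pristane mice and Abca12 from -3.50 ± 0.11 to -3.03 ± 0.18, both without overlap (all genes on this scale, 0.216% higher). Itga6 stood without overlap in the opposite direction (-2.59 ± 0.18 and -2.77 ± 0.06), as did 22.8% of all genes. In the AIRmax response Krt9 stood at -1.44 ± 0.18 in control and -2.42 ± 0.42 in pristane mice, and Spink5 at -2.12 ± 0.24 and -2.64 ± 0.32, both lower without overlap (all genes on this scale, 0.291% lower), while Itgb4 and the envelope gene Evpl were higher without overlap (all genes, 0.552% higher). Krt10 moved little on this scale, from 0.78 ± 0.11 to 0.85 ± 0.17. The subtraction moves the shares of all genes here as well. Before it, 3.19% were higher without overlap in the AIRmin response. In the AIRmax response 4.30% were lower and 1014 of 19938 genes higher without overlap before it.

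**Figure D5:**
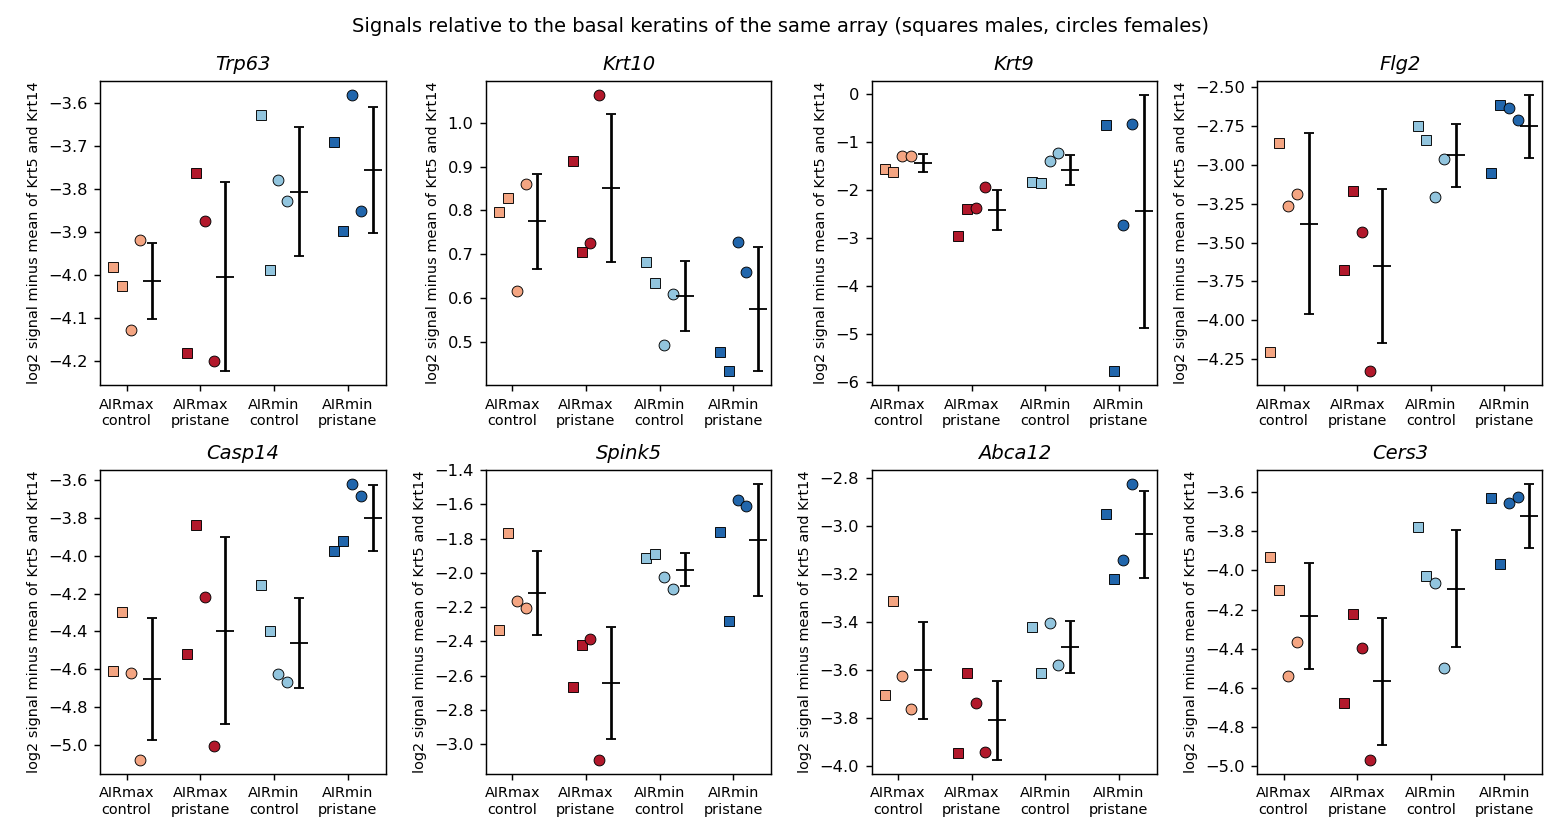
Log2 signal minus the mean of Krt5 and Krt14 on the same array for Trp63, Krt10, Krt9, Flg2, Casp14, Spink5, Abca12 and Cers3, by group, squares for males and circles for females, with the mean and 1 SD (n = 4 mice). Values compare arrays, not genes. Flg2, Spink5, Abca12 and Cers3 lie lower on all AIRmax pristane than on all AIRmin pristane arrays, Abca12 with means of -3.81 and -3.03.

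At day 0 the control mice of the lines were compared. By limma 0 of 40 members passed (all genes, 0.0802%), and the smallest adjusted p was 0.230, for Trp63. The median was -0.28 (all genes, -0.03), with 38 of 40 lower in AIRmax, and it was -0.07 without array 108 and 0.23 with the neutrophil score as a covariate. That score did not overlap between these groups (0.33 to 1.94 in AIRmax, -2.65 to 0.10 in AIRmin), so the covariate fit cannot tell line from score. All 9 neutrophil genes were higher in AIRmax at an unadjusted p under 0.05 (all genes, 1670 of 19938 higher), with 0 passing. At an unadjusted p under 0.05, 3 were lower (Trp63, Flg2 and Cdsn, all genes 8.40% lower) and 0 were higher. Trp63 was at 8.02, 7.94, 7.92 and 7.34 in AIRmax control and 8.38, 8.13, 8.39 and 8.10 in AIRmin control mice, a difference of -0.44 (standard error 0.15), and was the only member without overlap (all genes, 4.94% lower). SAM called 0 members (all genes, 1.40%).

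Whether pristane footpads departed from control footpads by different amounts in the 2 lines was tested by the interaction over all 16 arrays. By limma 0 of 40 members passed (all genes, 0.171%), and the smallest adjusted p was 0.459, for Itga6. All 40 had a more negative change in AIRmax, with a median of -0.78 (all genes, 0.01), which was -0.36 without array 112. At an unadjusted p under 0.05 there were 3, Itga6, Asprv1 and Abca12 (all genes, 2.82% lower), and 0 in the other direction. Abca12 differed in response by -1.21 (standard error 0.50, adjusted p = 0.532).

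In control mice the hair and nail genes and the stress gene Sprr1a stood apart by sex. The mean deviation of 15 hair and nail genes was 2.25 and 0.93 in AIRmax control males and 2.66 and 1.56 in AIRmin control males, against -1.43 to 0.39 in the 4 control females. Sprr1a was at 10.88, 10.23, 11.07 and 11.21 in the 4 control males and at 9.30, 8.65, 10.00 and 9.68 in the 4 control females, without overlap. No test was made of this difference, and the share of all genes apart by sex was not counted. The other stress genes overlapped by sex in control mice. In pristane mice Sprr1a overlapped too, at 8.55, 10.30, 10.31 and 9.66 in males and at 9.68, 7.10, 10.63 and 10.35 in females. The hair and nail genes also overlapped by sex in pristane mice. Over the 16 arrays the correlation of Sprr1a with the hair and nail genes was 0.81, that of Krt17 0.75 and that of Krt6a 0.63, as a description. At day 160 the 15 genes were at -0.97 ± 0.84 in AIRmax and -0.19 ± 0.97 in AIRmin mice, and their part in the stress gene differences was not tested.

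Other epidermal genes outside the list, 76 measured in 4 lists, had medians of the same sign as the members. These 4 lists too were chosen with earlier results of these data known. By limma 0 of 76 passed in any of the 5 comparisons. At day 160, 73 of 76 were lower in AIRmax with a median of -1.01. At an unadjusted p under 0.05, 50 were lower (all genes, 10.1% lower), and 20 were lower without overlap (all genes, 5.81% lower). Of 28 other envelope genes the late cornified envelope genes Lce1g (-1.86, standard error 0.40, adjusted p = 0.058) and Lce1h (-1.87, 0.44, adjusted p = 0.0736) had the smallest p, and these are close copies that probes may not tell apart. Of 22 other lipid and protease genes Prss8, a membrane protease (-1.65, 0.40, adjusted p = 0.0806), and Klk12 (-0.38, 0.11) came first, of 16 adhesion genes the tight junction genes Cldn1 (-0.90, 0.26) and Cldn4 (-1.40, 0.45), and of 10 regulators Hopx (-0.70, 0.20) and Ovol1 (-1.29, 0.44).

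In the AIRmin response 69 of the 76 had a positive change, with a median of 0.34. At an unadjusted p under 0.05, 29 were higher (all genes, 5.12% higher) and 1 was lower (all genes, 1449 of 19938 lower). Sprr2d (1.06, standard error 0.21, adjusted p = 0.0939), Krt78 (0.96, 0.22), Klk9 (0.64, 0.13, adjusted p = 0.0952), Klk11 (0.81, 0.20), Col17a1, which anchors basal cells (0.60, 0.18), Klf5 (0.55, 0.14) and Grhl3, a regulator of barrier formation (0.80, 0.22), had the smallest p of their lists. In AIRmax the median was -0.35, with 64 of 76 negative. At an unadjusted p under 0.05, 8 were lower (all genes, 6.90% lower) and 1 was higher (all genes, 1503 of 19938 higher). Sprr4 (-1.23, 0.39) and Lce1g (-1.28, 0.41) led the envelope genes. The gene that was higher was Lipn, of the lipid and protease list (0.57, adjusted p = 0.154 from limma). It had the smallest p of the 76.

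Alarm genes, which keratinocytes switch on under injury or infection, formed a list of their own with 15 measured. Their median was -0.01 in AIRmax, 0.45 in AIRmin and -0.19 at day 160, and 0 passed by limma. At an unadjusted p under 0.05 at day 160, 5 were lower in AIRmax mice (all genes, 10.1% lower) and 1 was higher (all genes, 1748 of 19938 higher). Slpi, a secreted protease inhibitor also made by neutrophils, had a mean of 8.99 in AIRmax and 7.07 in AIRmin mice at day 160 (1.92, standard error 0.61, adjusted p = 0.142), and Serpinb2 had means of 7.69 and 9.24 (-1.55, 0.37, adjusted p = 0.0741). These 2 genes thus stood in opposite order between the lines at day 160. At day 0, 4 of the 15 were higher in AIRmax at an unadjusted p under 0.05 (all genes, 1670 of 19938 higher) and 3 were lower (1675 lower). The median there was -0.15, and 0 passed by limma. S100a9 had the largest value at day 0 (1.93), and Serpinb2 the smallest adjusted p (0.210 from limma). The difference in response did not pass for Slpi (0.84) or Serpinb2 (-0.99).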

How the data were processed

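The 16 footpad RNA samples were hybridized to Affymetrix Mouse Gene 1.0 ST arrays. What the authors deposited is 1 normalized log2 signal for each probe set and array. According to the sample titles the values are the gene-level RMA output, while the submitters' processing notes name MAS5, with no version of either, and they were used as deposited. Of 35556 probe sets, 21789 named 1 gene in the platform annotation, 1621 several and 12146 none, and only the first were used. The probe set with the highest mean stood for each of 19938 genes, 999 of which had several. Positions came from RefSeq on GRCm38.p6, on 19856 genes.

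Groups were compared with limma 3.58.1 (lmFit and eBayes) in R 4.3.3 on the 8 arrays of each comparison, and the difference in response on all 16. Benjamini-Hochberg adjustment covered every gene fitted, and 0.05 was the threshold. SAM, the method of the study, was written anew with all relabellings of the arrays. Tables and figures were made in Python 3.11.15 (pandas 2.3.3, numpy 2.4.6, matplotlib 3.10.9). Fits were tested on simulated data. Groups come from the labels, which give no batches. The study names its 4 arrays a group as biological replicates. Arrays give no read depth, so the number of arrays limits the precision.

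Members and lists were chosen with earlier results of these data known. Named genes are any member that passes, the 2 largest changes of each role in the AIRmax response and between lines at day 160, Krt5, Krt14, Trp63, Krt1, Krt10, Krt9, Krt6a, Krt16, Lor and Ivl, and the 2 smallest p of each other list, and members behind small counts were named after their values were seen. A list's score is, for each array, its genes' log2 signals minus their 16-array means, averaged. Alternatives were the mean of probe sets, bright genes only (mean above the median gene), standardized arrays, quantile normalization, values centred on Krt5 and Krt14, a trended robust prior, sex as a covariate, a single fit of all 16 arrays, SAM, and each array left out. The neutrophil score as a covariate was added after seeing the data.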

Additional observations from a re-analysis of the deposited data

Results flagged for a closer look

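In groups of 4 arrays, 160 sets of values were examined for a single array far from the other 3, and 12 were found. The limit used is met by about 1 in 20 independent sets. The members moved together from array to array, so that rate is no measure for this count. All 12 were the lowest value of their group and came from 2 arrays. Array 108, an AIRmax control female, was apart for Krt5 at 11.22, Krt14 at 11.29, Trp63 at 7.34, Calml3 at 7.88, Dsp at 10.18 and Pkp1 at 8.98. Its neutrophil score of 1.94 was the highest of its group.

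Array 118, an AIRmin pristane male, was apart for Sprr1b at 9.61, Tgm1 at 8.29, Hrnr at 13.00, Klk5 at 8.72, Alox12b at 8.73 and Aloxe3 at 8.07. Its neutrophil score of 1.17 was the highest of its group, and its Krt9 signal of 6.46 the lowest of all 16 arrays. Array 112, the lowest for most members in AIRmax pristane mice, met this measure for no gene, since array 109 of the same group was low as well. The part of other cells in these values was not tested.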

How the results depend on the processing

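The count of members called, 0 in each of the 5 comparisons, was the same under the mean of probe sets, standardized arrays, quantile normalization and sex as a covariate. In the AIRmax response SAM (3.84% of all genes called) and the neutrophil covariate (1.95%) each called 1 (Krt9). In the AIRmin response bright genes only (0.441% of 9969 genes called), values centred on Krt5 and Krt14 (6.08% of all genes) and the trended robust prior (0.166%) each called 1 (Casp14), SAM 2 (2.13%) and the neutrophil covariate 14 (3.64%). Centring takes the movement of Krt5 and Krt14 out of genes that share it and adds their spread to genes that do not. Over all genes, centring called 25 higher and 1 lower in the AIRmax response (28 and 28 without centring) and 12 and 1201 in the AIRmin response (0 and 0). It called 785 and 6 at day 160 (170 and 101) and 18 and 2 at day 0 (10 and 6). Between lines at day 160, all 16 arrays in 1 fit called 7 (7.62% of all genes) and SAM 1 (5.21%). Leaving out 1 array gave 0 to 5 in the AIRmin response (5 without array 118, with 0.692% of all genes), 0 to 2 between lines at day 160 (2 without array 110, with 2.61%) and 0 in the other comparisons. At the level of single members, 3472 values kept direction and side of the threshold, 32 passed only under an alternative, 176 changed sign without passing in either fit, and 0 changed sign after a call. Leaving aside the centred values, the median over members ran from -0.66 to 0.05 in the AIRmax response, from 0.34 to 0.63 in the AIRmin response, from -1.41 to -0.47 at day 160, from -0.44 to 0.23 at day 0 and from -1.07 to -0.36 for the difference in response. With centring it was -0.10, 0.16, -0.35, -0.04 and -0.25 in the same order, beside medians of all genes of 0.29, -0.25, 0.76, 0.20 and 0.54. The cause of these shifts was not tested. The 0.23 at day 0 came from the neutrophil covariate, in a fit that cannot tell line from score there. No paired analysis was possible because the array numbers are not shared between groups. The spread among AIRmax pristane arrays limits what 4 arrays can show.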
